A study of Mus musculus with 4 samples.

Results

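The 216 intergenic METTL3 regions of mouse embryonic stem cells, out of 434 METTL3 regions in all, are described here with the genes that flank them. METTL3 is the methyltransferase that places N6-methyladenosine (m6A) on messenger RNA, and its contacts with DNA were mapped with ChIP-seq, in which chromatin is precipitated with an antibody and its DNA sequenced. The peaks of both immunoprecipitation (IP) lists on chromosomes 1 to 19 and X were pooled, peaks that overlapped by at least 1 bp were merged, and a region was kept as intergenic when its midpoint lay outside every RefSeq gene of any biotype on mm10. The other 218 regions had their midpoint in a gene, 180 of them in a protein-coding gene. Of the 216 intergenic regions, 214 lay wholly outside genes, and the regions beside Fbxo27 and Lamp1 reached into one. The rule used position only, so height, sharing and neighbours were not used to choose the regions, although a region had to be called in at least 1 list to be counted.

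The cells were a C57BL/6 line whose libraries are all titled WT, for wild type, and all were grown with LIF and the inhibitors CHIR99021 (of GSK3) and PD0325901 (of MEK). The 4 libraries comprised 2 METTL3 IPs, made with a rabbit antibody, and 2 inputs, which were the same kind of chromatin taken without antibody. The IPs held 22246555 tags in replicate 1 and 21793898 in replicate 2, and the inputs about 24800000 and 14900000. Whether the replicates are separate cultures is not stated in the labels, so a difference between them may be a technical one. The p-values compare these libraries with each other and, like the intervals, cover counting error only. Chromatin of cells lacking METTL3 and a control antibody were not analysed here, and the files hold no expression with which to check the cell label. Peaks were called separately in each IP against the input of the same number, so a height over input is a property of the selection and is given without a test.

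METTL3 is the catalytic subunit of a complex with METTL14 that acts on nascent transcripts in the nucleus, and METTL3 can be recovered with chromatin as well as with RNA. Sequence between genes holds distal regulatory elements, such as enhancers, many of which are themselves transcribed. In embryonic stem cells several genes of the pluripotency network, the set of transcription factors that keep the cells undifferentiated, are controlled by enhancers that lie many kilobases from the gene. Sox2 and Klf4 are textbook cases, with enhancers downstream of the gene. The coordinates of those enhancers were not used here.

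Sequence is shown for regions that overlap a window around a gene's start. Of 32851 RefSeq windows on GRCm38.p6, the patch release of mm10, that run from 250 bases before a gene's start to 50 after it, 4 overlapped an intergenic region. Those of Fbxo27, Lamp1 and the long non-coding RNA Gm16249 are printed 5′ to 3′ on the gene's strand because they show the DNA under METTL3 regions at the edge of the intergenic space, and capitals mark the bases inside the METTL3 region. The Fbxo27 window, chr7:28692599-28692898 on the plus strand, had 186 bases in the region, that of Lamp1, chr8:13158911-13159210 on the plus strand, had 171, and that of Gm16249, chr13:54783042-54783341 on the minus strand, had 30.
Fbxo27: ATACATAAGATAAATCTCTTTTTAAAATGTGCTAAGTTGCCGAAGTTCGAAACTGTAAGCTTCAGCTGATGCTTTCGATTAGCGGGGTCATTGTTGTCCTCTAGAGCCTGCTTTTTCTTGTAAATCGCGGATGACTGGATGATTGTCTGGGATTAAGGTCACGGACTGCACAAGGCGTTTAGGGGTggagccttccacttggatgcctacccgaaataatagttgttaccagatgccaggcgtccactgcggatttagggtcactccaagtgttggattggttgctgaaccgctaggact
Lamp1: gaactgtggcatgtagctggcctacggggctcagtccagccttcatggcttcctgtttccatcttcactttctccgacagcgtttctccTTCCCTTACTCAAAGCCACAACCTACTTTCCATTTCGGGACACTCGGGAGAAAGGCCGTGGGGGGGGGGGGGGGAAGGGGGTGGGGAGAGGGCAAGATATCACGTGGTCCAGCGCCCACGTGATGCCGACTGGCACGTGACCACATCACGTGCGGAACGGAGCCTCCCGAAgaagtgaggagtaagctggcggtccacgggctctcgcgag
Gm16249: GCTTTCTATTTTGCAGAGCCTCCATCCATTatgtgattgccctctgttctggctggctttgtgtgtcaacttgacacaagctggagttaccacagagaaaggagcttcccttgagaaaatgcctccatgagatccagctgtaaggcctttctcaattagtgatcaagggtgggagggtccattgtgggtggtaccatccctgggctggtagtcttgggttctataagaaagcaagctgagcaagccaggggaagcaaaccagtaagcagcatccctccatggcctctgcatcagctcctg

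The sequences differ in composition. The Fbxo27 window was 46.3% G and C, with 12 CpG dinucleotides at 0.759 of the number its base composition gives. The Lamp1 window was 60.7% G and C, with 19 CpG dinucleotides at a ratio of 0.692, and the Gm16249 window had 0 CpG. The medians over all windows were 52.7% and 0.384. Fbxo27 encodes an F-box protein that recognises glycoproteins, and Lamp1 encodes an abundant glycoprotein of the lysosome membrane.

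Short motifs were searched on both strands of the windows by their letters alone. The capitals of Lamp1 held the palindromic E-box CACGTG, the core bound by basic helix-loop-helix factors such as MYC and TFEB, at 4 places, starting 61, 45, 28 and 15 bases before the gene's start. One or more E-boxes stood in 7.15% of all windows and 4 or more in 8 windows (0.0244%), a count looked up after the Lamp1 sequence was seen. The Lamp1 region also held the KLF box GGGNGTGG, present in 17.6% of windows. The capitals of Fbxo27 held a SOX core, CATTGTT, 162 bases before the start and a nuclear receptor half-site, AAGGTCA, 96 bases before it, which stood in 3.78% and 4.72% of windows. The octamer ATGCAAAT, the GC box GGGCGG and the STAT site TTCCNGGAA, present in 1.74%, 35.7% and 1.15% of windows, were in none of the 3. A match is a stretch of letters and not a bound site. The Lamp1 region was called in replicate 1 alone, at a height of 8.99, whereas that of Fbxo27 was called in both.

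Height here is the caller's normalised tag count, the IP tags in a peak scaled to a library of 10000000 tags. Intergenic regions were mostly low, with a small tall group. In replicate 1 the 179 intergenic peaks had a median height of 8.09 and ranged from 5.39 to 44.1, and in replicate 2 the 139 intergenic peaks had a median of 9.18 and ranged from 5.96 to 37.2. Regions in genes had medians of 7.64 and 8.49, and their ranges overlapped those of the intergenic regions. The median intergenic peak held 19 and 20 IP tags against 3 and 1 input tags. No input tag was present under 12 intergenic peaks of replicate 1 and 32 of replicate 2. The focus ratio, the fraction of tags on the expected strand side of the peak centre, had medians of 0.815 and 0.824, against 0.815 and 0.818 in genes.

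Both replicates called 102 of the 216 intergenic regions, which is 47.2% (exact Clopper-Pearson 95% interval 40.4 to 54.1). Of the 218 regions in genes, 93 were in both lists, 42.7% (36.0 to 49.5), and over all 434 regions the share was 44.9%. The intervals overlapped, the intergenic share was near that of all regions, and the difference was not tested. Another 77 intergenic regions were in replicate 1 alone and 37 in replicate 2 alone, so the shared regions were 57.0% of the first list and 73.4% of the second. Shared regions were the taller ones. Each list is cut at the caller's thresholds, so a low peak is more apt to be missing from the other list. The part of that cut in the difference was not tested. The intergenic peaks of each list were divided into 3 nearly equal parts by height. In the tallest part, 54 of 59 in replicate 1 (91.5%) and 45 of 46 in replicate 2 (97.8%) were shared, against 13 of 59 (22.0%) and 20 of 46 (43.5%) in the lowest part. Shared regions had median heights of 10.3 and 10.6. Regions in 1 list had medians of 6.74 and 6.88, and none of these stood above 13.0 in replicate 1 or 11.9 in replicate 2.

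**Figure D1:**
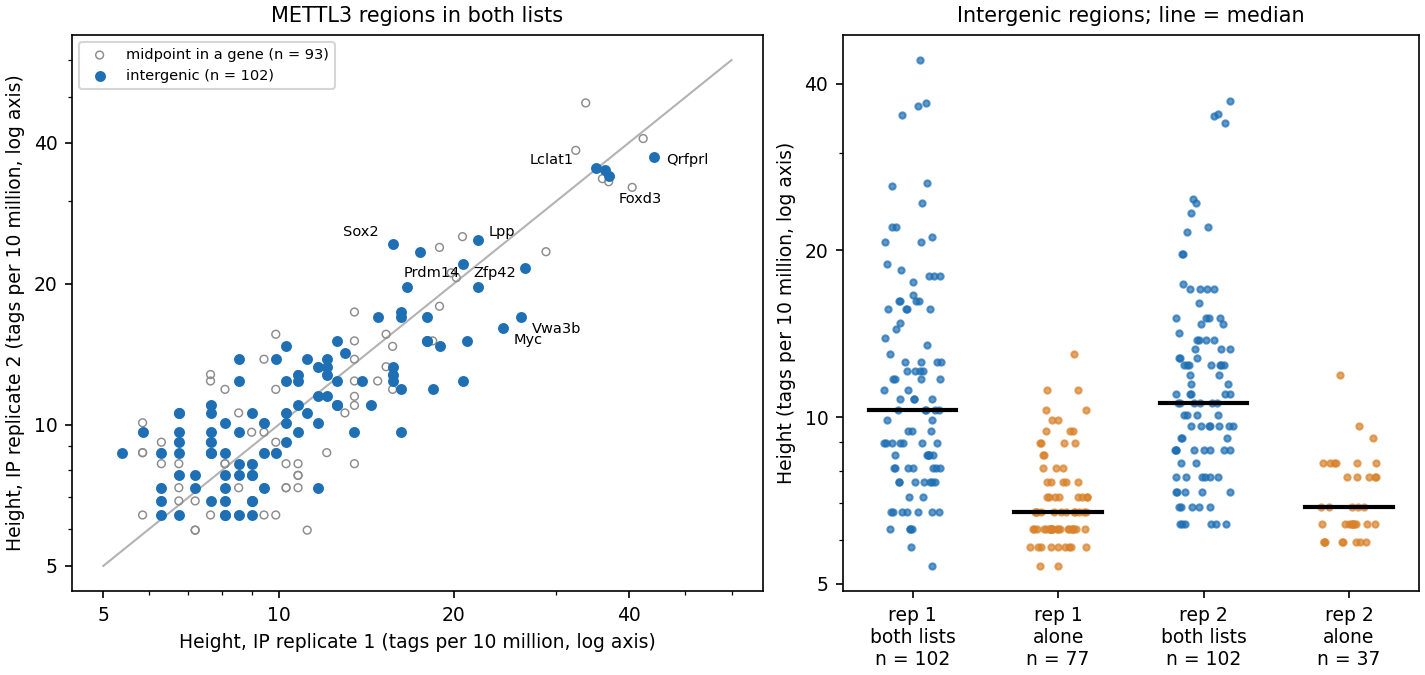
Left, the height of each METTL3 region in both lists in IP replicate 1 (x axis) and IP replicate 2 (y axis), in tags per 10000000 on log axes, with 102 intergenic regions filled, 93 regions in genes open, the line of equal height, and some intergenic regions named by their nearest protein-coding gene. Right, heights of intergenic regions in both lists or 1 list, with medians as lines at 10.3 and 6.74 in replicate 1 and 10.6 and 6.88 in replicate 2. The regions in 1 list sit at the low end.

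Where both replicates called an intergenic region, their heights were close. Regions called in 1 list have no height in the other, so the comparison is limited to regions that passed the caller's threshold in both. The higher value was at most 1.5 times the lower in 90 of 102 regions (88.2%), 52 regions were higher in replicate 1 and 50 in replicate 2, and the largest ratio was 1.71. The log2 ratio of the replicates had a standard deviation of 0.35, and Pearson's r of the log2 heights was 0.847 over the 102 regions, which come from the same pair of libraries. An exact conditional binomial test of the tags of replicate 1 against replicate 2, two-sided with Benjamini-Hochberg adjustment over all 195 shared regions, called 0 of 195 (0%) and so 0 of 102 intergenic regions. The smallest adjusted p was 1. At an unadjusted p under 0.05, 4 of the 195 shared regions passed (2.05%), a smaller share than the threshold itself. Of these, 3 were intergenic and higher in replicate 1, and the fourth, in a gene, was higher in replicate 2. The intergenic ones were nearest to Pibf1 (20.7 against 12.4, exact p = 0.0271), Vwa3b (26.1 against 17.0, exact p = 0.0406) and Myc (24.3 against 16.1, exact p = 0.0456). Pibf1 lies outside the naming rule and was named after its values were seen. The test compares these libraries and covers counting error only. Shared peaks overlapped by a median of 143 bp, and their centres were a median of 27 bp apart.

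Summed over the 102 shared intergenic regions, IP tags were 10.6 times input in replicate 1 (exact conditional binomial 95% interval 9.41 to 12.0) and 10.2 times in replicate 2 (8.80 to 11.9). The sums over shared regions in genes were 10.8 (9.47 to 12.2) and 11.4 (9.65 to 13.5). The intervals of the intergenic and genic sums overlapped in both replicates.

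The 4 tallest intergenic regions stood above 33 in both replicates, and no other intergenic region did in either. The tallest was at chr6:65270801-65270975, 110 kb upstream of Qrfprl, a gene of the G protein-coupled receptor class, with heights of 44.1 and 37.2. IP tags there were 98 and 81 against 5 and 2 input tags, or 21.9 (9.05 to 68.8) and 27.6 (7.40 to 232) times input. Its closest gene of any biotype, Gm20177, was 23.2 kb away. The region at chr14:60957938-60958153 lay 5.79 kb downstream of Tnfrsf19, which encodes a receptor of the tumour necrosis factor family, and had heights of 36.4 and 34.9. The region at chr4:99636084-99636283 lay 20.1 kb upstream of Foxd3, which encodes a forkhead factor needed to maintain the epiblast and embryonic stem cells, and had heights of 36.9 and 34.0. The region at chr17:73262674-73262850 lay 19.4 kb downstream of Lclat1, which encodes an acyltransferase that acts on lysocardiolipin, and 8.62 kb from the long non-coding RNA E330032C10Rik. Its heights were 35.1 and 35.3, with 78 and 77 IP tags against 2 and 0 input tags. With 3 input tags in place of 0, the fold over input in replicate 2 came to 17.5, which is not a lower bound. The lower end of the exact interval, from the 0 input tags observed, was 13.9.

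The other 11 of the 15 tallest shared regions followed, with mean heights down to 17.5. The region nearest to Ubqln4, a ubiquitin-binding protein, had heights of 26.5 and 21.6 and lay 2.35 kb downstream of the gene. The region nearest to Lpp, a LIM-domain protein of cell adhesions, had 22.0 and 24.8 and lay 46.3 kb downstream. That of Vwa3b lay 43.1 kb upstream and that of Loxl1, a lysyl oxidase of elastic fibres, lay 8.14 kb away, at 22.0 and 19.7. Zfp42, which encodes REX1, a marker of naive embryonic stem cells, had a region 13.8 kb upstream at chr8:43320672-43320854 with heights of 20.7 and 22.0. Prdm14, a PR-domain factor of naive pluripotency and germ cells, had a region 28.4 kb away at chr1:13084961-13085155 with 17.5 and 23.4. Myc, the growth-promoting oncogene, had a region 22.4 kb away at chr15:62012697-62012897. Sall1, a zinc-finger factor of the Spalt family, had a region 23.6 kb downstream with 16.6 and 19.7. Foxc1, a forkhead factor of mesoderm, had a region 77.5 kb upstream with 21.1 and 15.1, and Arl4d, a small GTPase, had one 14.4 kb downstream with 18.0 and 17.0. The 15 also include a region downstream of Sox2, which is given below with the other regions there. Of these 15 regions, 3 lay within 10 kb of a protein-coding gene and 9 lay more than 20 kb from one.

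Distance to a protein-coding gene is measured from the region's midpoint to the nearest gene end, and the reference beside it is the same distance for every intergenic base of the span that each chromosome's annotated genes cover. Assembly gaps and sequence to which reads cannot be aligned were not taken out of that reference. Intergenic METTL3 regions had a median distance of 19.0 kb, with quartiles of 7.24 and 63.1 kb and a range of 0.076 to 1671 kb, whereas the median intergenic base was 91.4 kb from a protein-coding gene. Within 5 kb lay 17.6% of the regions and 9.58% of the bases. Within 20 kb lay 50.9% (44.1 to 57.8) and 25.0%, and within 100 kb 83.3% (77.7 to 88.0) and 51.7%. Only 11 regions (5.09%) were within 1 kb, where 2.32% of the bases lay. The regions were thus nearer to genes than intergenic sequence at large at every distance given, and most were still several kilobases away.

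The median distance was 22.3 kb for the 102 regions in both lists and 16.6 kb for those in 1 list. The share in both lists was 14 of 38 up to 5 kb (36.8%), 33 of 72 from 5 to 20 kb (45.8%), 38 of 70 from 20 to 100 kb (54.3%) and 17 of 36 beyond 100 kb (47.2%), with overlapping intervals. Median heights of the shared regions in these bins were 9.67, 10.3, 11.9 and 8.99 in replicate 1 and 10.4, 11.0, 12.2 and 9.64 in replicate 2. The highest median was that of the 20 to 100 kb bin in both replicates, and the lowest was that of the regions beyond 100 kb. The differences were not tested.

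**Figure D2:**
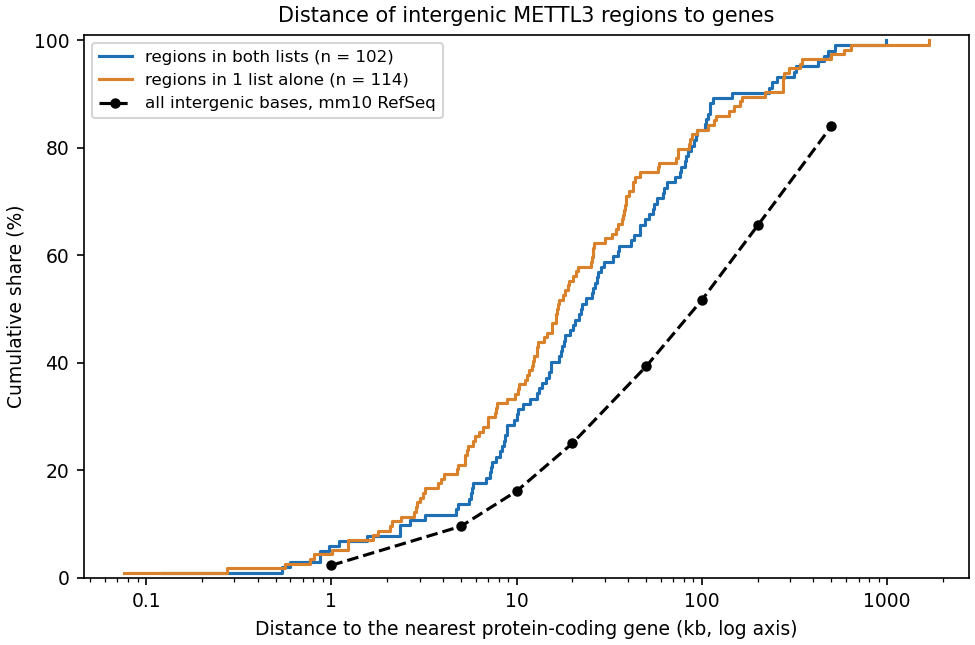
Cumulative share (y axis, percent) of intergenic METTL3 regions in both lists (102), of those in 1 list alone (114) and of all intergenic bases, by distance to the nearest protein-coding gene (x axis, kb, log axis). Both curves of regions lie to the left of that of the bases, with medians of 22.3 and 16.6 kb against 91.4 kb.

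The strand of the nearest protein-coding gene was known for 176 regions, of which 98 (55.7%) lay upstream of the gene's start and 78 downstream of its end. Of those within 5 kb, 21 were upstream and 11 downstream. Among shared regions 45 were upstream and 39 downstream. The share of intergenic bases on each side is not given here, so these counts are not read as a preference. The shared region closest to a protein-coding gene was that of Fbxo27, at chr7:28692532-28692784, whose midpoint was 0.122 kb before the gene's outermost end and 191 bases before the start used for the sequence printed above, with heights of 8.99 and 6.88. Next came Ogt, which encodes the enzyme that attaches O-linked N-acetylglucosamine to nuclear proteins, 0.538 kb upstream and also at 8.99 and 6.88. The third was Eif4e1b, a cap-binding protein of oocytes, 0.595 kb away at 11.7 and 10.1, with Gm16249 closer still at 0.308 kb. At the other extreme, shared regions lay 980 kb from Dnajb9, a chaperone of the endoplasmic reticulum (8.99 and 7.80), 521 kb from Rgma, a co-receptor for bone morphogenetic proteins (10.8 and 11.0), and 478 kb from Ofcc1 (14.4 and 11.0). The heights of the 3 nearest and the 3 farthest regions overlapped in both replicates.

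The 216 regions had 196 different nearest protein-coding genes, 0.906% of the 21627 in the table, and 179 of these were nearest to a single region. Of the others, 15 genes were nearest to 2 regions, Sox2 to 3 and Klf4 to 4. Being nearest does not show that a region acts on that gene. The neighbours were compared with 6 lists of genes, each beside the share of intergenic bases for which a gene of the list is the nearest. The lists were written with earlier results of these data known. Their counts are therefore a description, and an excess over the share of bases may partly reflect the choice of genes. Among the 28 genes of the pluripotency network, 9 (32.1%) were nearest to an intergenic region, against 0.906% of all protein-coding genes. They were nearest to 15 regions, 6.94% of the 216, and to 0.465% of intergenic bases, and 11 of the 15 regions were in both lists. These genes have wide surroundings, with a median of 74.4 kb of intergenic sequence each against 16.0 kb over all protein-coding genes. The comparison by bases takes that into account, and by it the list would hold 1.00 regions.

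Sox2, a partner of OCT4 in the core of the network, was nearest to 3 shared regions downstream of its end. The region 93.0 kb away, at chr3:34745373-34745586, had heights of 15.7 and 24.3, from 35 and 53 IP tags against 1 and 4 input tags, or 39.0 (6.56 to 1585) and 9.03 (3.33 to 34.4) times input. Those at chr3:34756778-34756976 and chr3:34757968-34758141, 104 and 106 kb away, had 11.7 and 7.34, and 7.64 and 9.18. The tallest of the 3 was thus the one nearest to the gene in both replicates. Sox2 is the nearest protein-coding gene to 602 kb of intergenic sequence, which by length would hold 0.0948 regions.

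Klf4, a zinc-finger factor used to reprogram somatic cells, was nearest to 4 regions, all downstream. Those at 62.6, 51.6 and 49.6 kb were shared, with heights of 9.44 and 10.1 for the first, 12.6 and 12.4 for the second, and 8.09 and 7.80 for the third. The fourth, 11.1 kb away, was in replicate 1 alone at 9.44. The shared Klf4 regions differed by less than 1 tag per 10000000 between replicates. The second stood above the medians of shared regions, 10.3 and 10.6, in both replicates, and the other shared ones stood below them. Klf4 is nearest to 525 kb, which by length would hold 0.0827 regions.

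The rest of the pluripotency neighbours had 1 or 2 regions each. Tfcp2l1, a naive-state factor downstream of LIF, had a region 2.34 kb upstream at 9.44 and 8.72. Nr5a2, a nuclear receptor that can activate Pou5f1, was nearest to a region 458 kb upstream at 13.9 and 12.4. Tbx3, a T-box factor of the naive state, was nearest to a region in replicate 1 alone (7.64, 296 kb) and another in replicate 2 alone (8.26, 85.4 kb). Dppa5a, an RNA-binding protein of pluripotent cells, had a region in replicate 1 alone at 6.29. Zfp42, Prdm14 and Myc, given above, complete the 9. With regions in both lists only, 7 of the 28 genes were left, and within 100 kb of the gene 8 were. Pou5f1, Nanog and Klf2 were nearest to no intergenic region. Regions in genes were not counted, and Nanog held a region in replicate 2 alone at 7.34.

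For the signalling pathways of self-renewal, 6 of 30 genes (20%) were nearest to 6 regions, 2.78% of regions against 0.214% of intergenic bases, and 3 of these were in both lists. Lifr encodes the receptor subunit that binds LIF, and its region 8.56 kb upstream had heights of 12.1 and 12.8. Smad7, an inhibitor of BMP and TGF-beta signalling, had a region 22.3 kb away at 11.2 and 10.6. Id3, a target of BMP signalling, had a region 1.55 kb downstream at 7.64 and 10.6. The other 3 were in replicate 1 alone and low. Tcf7l1, a repressor at the end of the Wnt pathway, had 7.19 at 3.19 kb, Smad1, a transducer of BMP signals, had 6.29 at 6.61 kb, and Spry4, a feedback inhibitor of FGF signalling, had 6.29 at 15.4 kb. In both replicates the regions of Lifr and Smad7 were thus at least as tall as any other region of the list.

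Of 28 chromatin regulators, 2 (7.14%) were nearest to 4 regions, 1.85% of regions against 0.104% of intergenic bases. Jarid2, a partner of Polycomb repressive complex 2, had a shared region 8.31 kb upstream at 12.6 and 11.0 and a region in replicate 1 alone, 25.3 kb upstream, at 9.89. Kat6b, a histone acetyltransferase, had shared regions 14.9 and 12.8 kb upstream, at 8.09 and 8.72 and at 8.09 and 6.88. Kat6b is the nearest protein-coding gene to only 17.6 kb, which by length would hold 0.00278 regions. The long non-coding RNA Gm30363 lay on the far side of these regions from Kat6b, 0.653 kb from the one and 2.75 kb from the other.

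**Figure D3:**
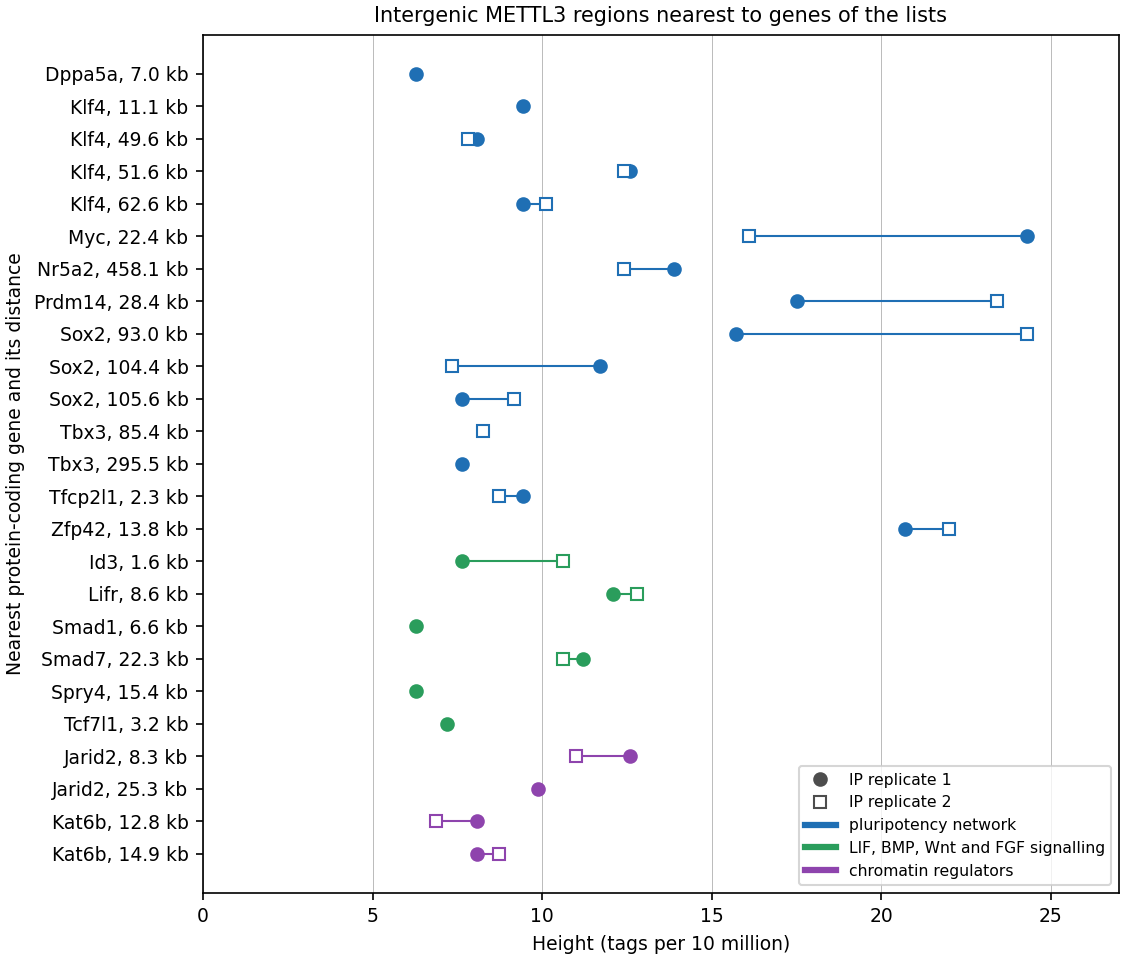
Height (x axis, tags per 10000000) in IP replicate 1 (filled circles) and IP replicate 2 (open squares) of each intergenic METTL3 region whose nearest protein-coding gene is in the pluripotency (blue), signalling (green) or chromatin (purple) list, with the gene and its distance on the y axis and a line joining the replicates of a shared region. Zfp42, Prdm14, Myc and the Sox2 region at 93.0 kb stand above 15 in both replicates, and regions with a single marker were called in 1 list.

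The other 3 lists had no intergenic region. None of 29 lineage regulators, 22 genes that write, erase or read m6A, or 15 markers of feeder fibroblasts was the nearest protein-coding gene to an intergenic region. By length these lists would hold 0.878, 0.246 and 0.200 regions, so a count of 0 says little about them. Regions in genes were not counted here, and Mettl3 and Mettl14 held METTL3 regions called in both replicates. Foxd3, Sall1 and Foxc1, which act in development and had tall regions, are not in the lineage list as it was written. Gata3 and Pax2, also absent from that list, were nearest to shared regions at 8.99 and 6.42 and at 10.3 and 9.18. These 2 genes were named after their values were seen. The lineage count of 0 thus depends on which genes were listed.

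Most intergenic regions stood alone among the intergenic ones, and regions in genes were not counted as neighbours. The gap between neighbouring intergenic regions on a chromosome had a median of 5094 kb, and 17 gaps were under 100 kb. Among the regions in both lists, 6 of 102 (5.88%) lay within 10 kb of another, in 3 pairs. The pair downstream of Sox2 was 991 bp apart, that downstream of Klf4 was 1847 bp apart and that upstream of Kat6b was 1909 bp apart. A shared region in Gm30363, at 7.19 and 5.96, also lay within 10 kb of the Kat6b pair. The Tbx3 region at 85.4 kb lay within 10 kb of regions in the long non-coding RNA AW549542. The share over all METTL3 regions is not given here. With regions in 1 list included, 18 of 216 (8.33%) fell into 9 pairs, but 3 of these pairs were 1 peak of each replicate 21, 84 and 221 bp apart. The count of 18 was 8 without replicate 1 and 10 without replicate 2. Each member of the Klf4 and Kat6b pairs was within 1.5 tags per 10000000 of its own value in the other replicate. At the Sox2 pair the member 104 kb away was higher in replicate 1 and the member 106 kb away higher in replicate 2, with exact p = 0.127 and 0.624 before adjustment.

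The tallest regions called in 1 list did not approach the tallest shared ones. In replicate 1 alone they were nearest to Etfbkmt (13.0), Asns (11.2), Plekha5 (11.2), Cobl (10.3) and Txlng (10.3). Etfbkmt encodes a mitochondrial lysine methyltransferase, Asns the enzyme that makes asparagine, and Cobl an actin nucleator. The first 3 of these regions are on chromosome 6. In replicate 2 alone they were nearest to Ticrr (11.9), a regulator of DNA replication origins, Sema3e (9.64), a guidance molecule, and Zfp982 (9.18), a zinc-finger protein. Tbx3 and Plpp4 followed among 6 regions tied at 8.26.

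The number of intergenic regions departed from intergenic length on several chromosomes, some of which also differed in the caller's local tag density. Chromosome 8 held 25 regions, where 10.8 would fall by intergenic length, chromosome 6 held 19 against 11.6, and chromosome X held 6 against 18.4. Chromosome 19 held 8 against 4.05 and chromosome 10 held 4 against 10.0. The median IP tag density in the 10 kb around all peaks, in genes or not, relative to the autosomes other than 6 and 8, was 1.31 and 1.39 on chromosome 8, 1.40 and 1.40 on chromosome 6, and 0.496 and 0.558 on chromosome X in the 2 replicates. It was 1.09 and 0.955 on chromosome 19 and 1.03 and 1.02 on chromosome 10. These chromosomes were named after their counts were seen, and the departures from length were not tested. On chromosomes 6 and 8 together 12 of 44 regions were shared (27.3%), whereas on the others 90 of 172 were (52.3%). Regions in genes had the same order, with 10 of 44 (22.7%) on chromosomes 6 and 8 and 83 of 174 (47.7%) on the others. Chromosome 6 had 13 regions in replicate 1 alone, and chromosome 1 had 12 of 16 in both lists. The part of tag density in these counts was not tested.

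**Figure D4:**
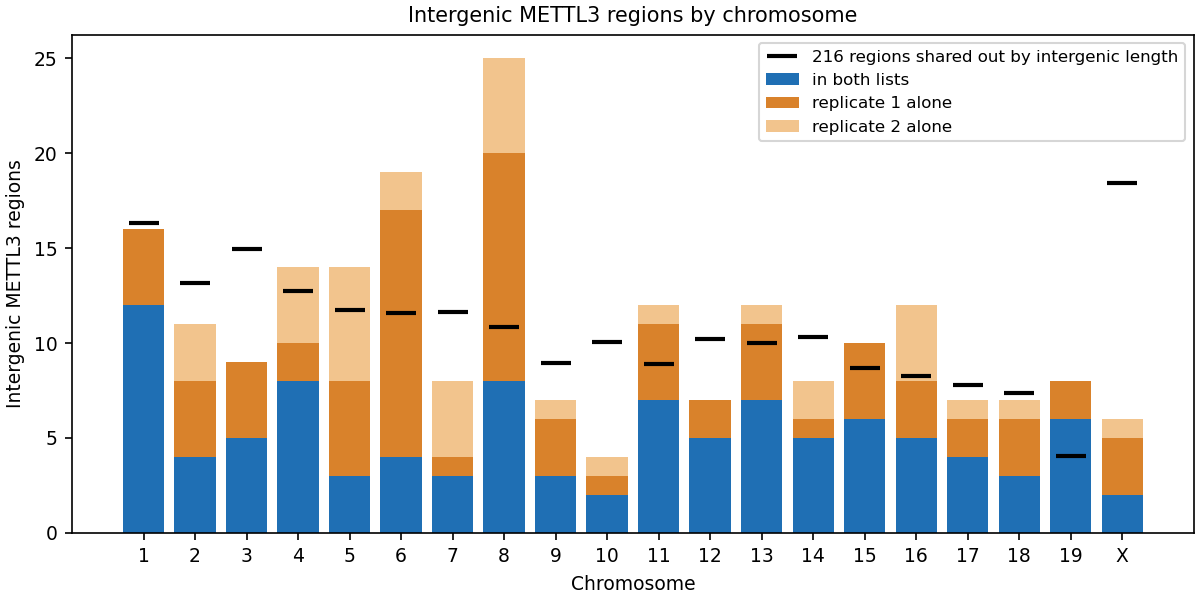
Number of intergenic METTL3 regions per chromosome (y axis), stacked by presence in both lists, in replicate 1 alone or in replicate 2 alone, with black dashes for the 216 regions shared out by intergenic length. Chromosomes 8 and 6 stand above their dashes with 25 and 19 regions, and chromosome X stands below with 6.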

How the data were processed

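METTL3 ChIP-seq peak lists of 2 IP libraries were used, and the 2 inputs entered through the caller's input columns. HOMER, Bowtie 1.2.2, Trimmomatic 0.38, CASAVA and the build mm10 are named, without roles, in the submitters' processing notes. The alignment step is not given in the sources used here. Per the file headers, HOMER's findPeaks called 353 and 281 peaks in factor style, per IP and not on pooled replicates. The false discovery rate was 0.001, for which the headers give a threshold of 14 tags. Some listed peaks held fewer recovered IP tags, such as 12 at a region 20.1 kb from Scn3a in replicate 1. Calling also used a Poisson p-value of 0.0001 over input and over the surrounding 10 kb. It required a fold of 1 and kept at most 1 tag per position. A threshold on tags lets a region just below it in a replicate count as unshared.

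Height is the deposited normalised tag count, a signal per 10000000 tags. The authors' total tags are an unscaled count in replicate 1 and are scaled to the input's depth in replicate 2. The deposited focus ratio is a fraction, the findPeaks score and the fold or ratio over input and over the local window are the authors' own values per peak, and the authors' p-values were not used further. Whole IP and input tags were recovered by dividing by the value of 1 tag, and all lay within 0.105 (IP) or 0.0537 (input) of a whole number.

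Left out were 5 peaks, 3 on chromosome Y and 2 on unplaced sequence. Positions are 1-based on mm10. Genes are RefSeq (GRCm38.p6), whose table gives start, end and biotype, and strand came from the table of promoter windows, which held the neighbours of 176 regions. Peak sequence away from these windows was not analysed here. Calculations used Python 3.11.15, pandas 2.3.3, numpy 2.4.6 and scipy 1.17.1. The replicate test was also run on simulated counts, but its power at the depth of these libraries is not reported here. Intervals are exact at the 95% level, and folds with no input tag were computed with 3 input tags. Adjusted p-values had a threshold of 0.05.

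Regions named are the 15 tallest in both lists, those in pairs within 10 kb in both lists, those nearest to a listed gene, the 3 nearest to and 3 farthest from a gene in both lists, the 5 tallest in each list alone, and those of genes nearest to 3 or more. The members, the gene lists and these rules were chosen with earlier results of these data known, so the lists' counts are a description. Alternatives covered the gene definition, stricter calls, the merging distance, the pairing distance, the scaling of the replicates and leaving out a replicate.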

Additional observations from a re-analysis of the deposited data

How the results depend on the processing

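Of 39 alternatives, 25 left a result within its limits and 14 moved it. Among them the share of regions in both lists, 47.2%, moved to 28.1% where a fold over input of at least 8 was asked of each list and to 58.5% among the upper 50% of each list by score. The median distance of 19.0 kb became 21.1 kb in that upper part and 9.51 kb to a gene of any biotype, and ran from 19.4 to 21.7 kb without 1 replicate. The median height of 8.03 became 11.2 in the upper part and ran from 8.09 to 9.18 without 1 replicate. The number of regions in groups within 10 kb, 18, became 4 at a fold of at least 8, 6 in the upper part, 28 within 20 kb and 31 within 50 or 100 kb, and ran from 8 to 10 without 1 replicate. The 9 pluripotency genes stayed between 7 and 9 and the 0 calls between replicates stayed 0 in the alternatives run for them. Those of the gene lists and the share without chromosomes 6 and 8 were chosen after seeing the data. No paired analysis was possible because the only test compared the IP replicates with each other. IP and input libraries do share numbers, and the folds are within those pairs, but they were left untested by choice since the peaks were called on them. Depth limits single regions, since a median of 19 or 20 IP tags against 3 or 1 input tags leaves wide intervals for a fold.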

Other observations

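Counting genes of any biotype, the gene closest to an intergenic METTL3 region was protein-coding for 96 of the 216 regions (44.4%). It was a long non-coding RNA for 69 (31.9%) and a pseudogene for 37 (17.1%). Of all 49550 genes on these chromosomes, 21627 were protein-coding, a share near that of the regions. That share counts genes and not the intergenic bases nearest to them, so the likeness is not read as a trait of the regions. The shares of the other biotypes over all genes were not computed, so their counts are not read as a trait of the regions. A snoRNA was closest to 5 regions, a miRNA to 4, and a snRNA and a tRNA to 2 each. Regions closest to a long non-coding RNA were in both lists in 36 of 69 cases, against 44 of 96 for protein-coding genes, and the difference was not tested. The region closest to any non-coding gene lay 0.248 kb from the tRNA gene n-TVaac2, with a height of 7.64 in replicate 1 alone. The region 2.62 kb downstream of the long non-coding RNA Gm46159 had heights of 16.2 and 11.9, and the region 3.39 kb from the long non-coding RNA Gm36005 had 15.7 and 13.3. The 3 shared regions downstream of Klf4 lay 4.46, 6.36 and 8.40 kb from the snoRNA gene Gm22150. These genes were named after their values were seen.

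Of the 9 pairs of intergenic regions within 10 kb, 3 had no region in both lists yet 1 peak in each. The gap between the peak of replicate 1 and that of replicate 2 was 21 bp at Ticrr, 84 bp at Sema3e and 221 bp at 1810013L24Rik, so these peaks were neighbours without overlapping. Where peaks up to 500 bp apart were merged, 213 regions were left and 49.3% were in both lists. The pairs at Plekha5 and Cobl were seen in replicate 1 alone, and that at Plpp4 in replicate 2 alone.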
